A study of Mus musculus with 15 samples.

Results

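Ly6a, Ly6c1, Ly6c2 and Ly6g encode small surface proteins of the Ly6 family and lie in 1 cluster on mouse chromosome 15. These 4 genes, of 55421 gene IDs in the deposited table of transcript levels, were chosen by name, and their levels in the groups compared here were known when they were chosen. Their levels and differences are therefore a description without a test. The other Ly6 family genes and the gene lists below were tested in a fit over all genes, but the lists too were chosen with earlier results of these data known, so their counts are no independent support for any direction. The RNA came from cultures of mouse CD4 T cells. Naive CD4 T cells (CD4+ CD25-, high in CD62L and low in CD44) were sorted from spleen and lymph nodes, plated on antibodies to CD3 (2 µg/ml) and CD28 (1 µg/ml), and harvested on day 5. Each of 5 groups had 3 libraries of poly(A) RNA, 15 in all. The values are TPM (transcript levels scaled for length and library total), which the authors estimated with RSEM.

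The Treg Srci1 group held wild-type cells in Treg conditions, which were TGFβ at 0.5 ng/ml unless otherwise noted by the submitters, IL-2 at 200 U/ml and antibodies blocking IFNγ and IL-4. A compound named Srci1 was added 24 h after plating, and the labels give neither its dose nor a description of it. The Treg DMSO group was the same without Srci1 and with the solvent DMSO. The TH17 STAT3 knockout group carried floxed STAT3 alleles and CD4-cre, a transgene in which Cd4 sequences drive Cre in developing T cells, and received DMSO. It was cultured in TH17 conditions, which were TGFβ at 2.5 ng/ml, IL-1β, IL-6 and IL-23 at 10 ng/ml each, and the same blocking antibodies. The TH17 Srci1 group held wild-type cells in TH17 conditions with Srci1, and the TH17 DMSO group held wild-type cells in TH17 conditions with DMSO. The labels do not say whether the 3 libraries of a group came from separate mice or cultures, so a p-value here is set by the spread between libraries that may be technical repeats.

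Ly6 proteins are held on the outer membrane by a glycosylphosphatidylinositol (GPI) anchor and fold into a compact disulphide-bonded domain shared with the urokinase receptor. Ly6A, also called Sca-1, is known as a marker of mouse blood stem cells and is induced on activated T cells and by interferons. Ly6C, encoded by the close copies Ly6c1 and Ly6c2, is used to grade monocytes and memory or effector T cells, and Ly6G is the standard surface marker of mouse neutrophils.

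The start regions of the members are shown because close copies had opposite profiles across the groups (below). RefSeq entries on build GRCm38.p6 covered 3 of the 4 members, Ly6c1, Ly6c2 and Ly6g. Each sequence runs from 250 bases before the start of transcription to 50 bases after it, 5′ to 3′ on the strand of the gene. Where a gene had 2 entries, the one nearest the GENCODE gene start was taken. Capitals mark matches to 7 short motifs searched on both strands. The regions are chr15:75048788-75049087 (minus strand) for Ly6c1, chr15:75111922-75112221 (minus strand) for Ly6c2 and chr15:75155011-75155310 (plus strand) for Ly6g.
Ly6c1: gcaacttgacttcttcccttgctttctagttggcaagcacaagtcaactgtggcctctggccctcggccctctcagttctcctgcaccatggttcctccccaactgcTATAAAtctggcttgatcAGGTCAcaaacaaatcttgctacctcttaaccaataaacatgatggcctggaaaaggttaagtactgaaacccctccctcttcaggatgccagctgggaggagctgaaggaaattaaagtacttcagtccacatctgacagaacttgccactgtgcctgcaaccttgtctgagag
Ly6c2: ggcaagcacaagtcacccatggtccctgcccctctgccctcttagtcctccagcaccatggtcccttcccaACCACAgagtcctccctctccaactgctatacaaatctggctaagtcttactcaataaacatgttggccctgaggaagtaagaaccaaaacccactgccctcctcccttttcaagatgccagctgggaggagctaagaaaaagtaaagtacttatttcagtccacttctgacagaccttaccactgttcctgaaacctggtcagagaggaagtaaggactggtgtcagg
Ly6g: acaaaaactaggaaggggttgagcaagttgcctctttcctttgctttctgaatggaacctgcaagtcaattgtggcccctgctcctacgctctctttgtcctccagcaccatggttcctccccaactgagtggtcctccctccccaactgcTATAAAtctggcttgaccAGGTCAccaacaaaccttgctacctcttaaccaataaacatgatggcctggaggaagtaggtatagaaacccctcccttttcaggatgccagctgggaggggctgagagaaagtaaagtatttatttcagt
Ly6c1 and Ly6g each held 1 TATAAA, at -143 in Ly6c1 and -99 in Ly6g relative to the start. They also each held 1 AGGTCA, the core that ROR proteins bind, at -125 in Ly6c1 and -81 in Ly6g. Ly6c2 held neither of these and had 1 match to the RUNX core TGTGGT, read as ACCACA at -179. None of the 3 regions matched the STAT motif TTCNNNGAA, the interferon response motif (GAAA, any 2 bases, GAAA), the T-box motif GGTGTGA or the AP-1 motif TGANTCA. Of 32851 RefSeq start regions of this length, 13.6% held TATAAA, 16.3% AGGTCA, 16.8% TGTGGT, 8.30% the STAT motif, 3.44% the interferon motif, 3.98% the T-box motif and 7.81% the AP-1 motif. A match describes letters and is not shown to be a site. The start region of Ly6c1 was 86.4% identical to that of Ly6g over 250 aligned bases, and 82.3% identical to that of Ly6c2 over 260.

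Within groups, libraries correlated at 0.977 to 0.986 (Pearson, log2 of TPM + 1, across genes), and no 2 were identical. The TPM of ribosomal protein genes summed to 20.3% to 30.4% of a library, lowest in both Srci1 groups. The 6 marker genes of CD4 T cells, among them Cd3e and Cd4, summed to 2249.8 to 3705 TPM over all libraries. Stat3 was at 33.5, 38.4 and 30.7 TPM in STAT3 knockout TH17 cultures, against 130, 133 and 99.8 TPM in TH17 DMSO cultures, and fell (limma adjusted p = 3.75e-09). The deleted exons are not given in the labels, and the value is for the whole gene. The 5 TH17 markers summed to 11.3 to 15.5 TPM in Treg Srci1, 12.7 to 17.5 TPM in Treg DMSO, 97.2 to 115 TPM in STAT3 knockout TH17, 634 to 679 TPM in TH17 Srci1 and 3899 to 4036 TPM in TH17 DMSO cultures. The 4 Treg markers did not separate the culture conditions, at 1178 to 1623 TPM in Treg cultures and 730.4 to 1918 TPM in TH17 cultures. Il17a, the signature TH17 cytokine, was at 0, 0.0800 and 0 TPM in Treg DMSO cultures, against 1279.8, 1356 and 1378 TPM in TH17 DMSO cultures. Foxp3, the regulator that defines Treg cells, was at 127 to 131 TPM in Treg DMSO cultures and at 9.37 to 13.6 TPM in TH17 DMSO cultures, but also at 192 to 225 TPM in STAT3 knockout and 194 to 209 TPM in TH17 Srci1 cultures. The median log2 difference over all genes tested was 0.13 in STAT3 knockout against wild-type TH17 cultures, 0.21 with Srci1 in TH17 cultures, 0.11 with Srci1 in Treg cultures and 0.18 in Treg against TH17 cultures. Median-of-ratios scaling, which sets these medians near 0, turned the share of higher genes among all calls to 49.5% against 62.1% as deposited in the knockout comparison, to 50% against 82.7% with Srci1 in TH17 cultures, to 43.5% against 63.0% with Srci1 in Treg cultures and to 48.9% against 72.0% for Treg against TH17 cultures. In bulk RNA, fewer cells expressing a gene and less RNA per cell cannot be told apart.

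Ly6a (ENSMUSG00000075602.10, chr15:74994877-74998031, minus strand) was the most abundant member in each group. It was at 146, 164 and 139.6 TPM in Treg Srci1 cultures and 474, 474 and 484 TPM in Treg DMSO cultures. It was at 113, 101 and 114 TPM in STAT3 knockout TH17 cultures, 694, 623 and 649.7 TPM in TH17 Srci1 cultures and 898, 889 and 848 TPM in TH17 DMSO cultures. No 2 groups overlapped, and their order by level was TH17 DMSO, TH17 Srci1, Treg DMSO, Treg Srci1 and STAT3 knockout TH17. By mean level, Ly6a ranked 152 of 55421 gene IDs in TH17 DMSO cultures. In STAT3 knockout TH17 cultures its mean was 8.04-fold below that of TH17 DMSO cultures (109 ± 7.62 against 878.5 ± 26.8 TPM, SD, n = 3 each). Srci1 cultures were 3.18-fold below DMSO cultures under Treg conditions (150.03 ± 12.7 against 477 ± 5.75 TPM), and 1.34-fold below them under TH17 conditions (656 ± 35.6 against 878.5 ± 26.8 TPM). Treg DMSO cultures were 1.84-fold below TH17 DMSO cultures.

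Ly6c1 (ENSMUSG00000079018.10, chr15:75044018-75048830, minus strand), 1 of the 2 genes for Ly6C, was far higher in TH17 DMSO cultures than in any other group. It was at 9.11, 13.1 and 8.83 TPM in Treg Srci1 cultures and 7.77, 10.5 and 7.58 TPM in Treg DMSO cultures, which overlapped. It was at 5.03, 1.07 and 0.760 TPM in STAT3 knockout TH17 cultures, 21.5, 33.9 and 24.2 TPM in TH17 Srci1 cultures and 176, 167 and 176 TPM in TH17 DMSO cultures. The first knockout library stood above the other 2. The STAT3 knockout mean was 75.6-fold below that of TH17 DMSO cultures (2.29 ± 2.38 against 173 ± 4.98 TPM). It was 189-fold below without the first knockout library and 56.7-fold below without the third. TH17 Srci1 cultures were 6.51-fold below TH17 DMSO cultures (26.5 ± 6.52 against 173 ± 4.98 TPM). Under Treg conditions the Srci1 and DMSO means differed by less than the spread between libraries (10.4 ± 2.41 against 8.63 ± 1.65 TPM). Treg DMSO cultures were 20.03-fold below TH17 DMSO cultures.

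Ly6c2 (ENSMUSG00000022584.14, chr15:75108158-75111970, minus strand), the other gene for Ly6C, was ordered the opposite way between TH17 and Treg cultures. It was at 15.4, 19.8 and 15.5 TPM in Treg Srci1 cultures and 76.6, 62.7 and 73.7 TPM in Treg DMSO cultures, which did not overlap. It was at 6.70, 9.03 and 7.56 TPM in STAT3 knockout TH17 cultures, 0, 1.18 and 0.780 TPM in TH17 Srci1 cultures and 0.910, 0.370 and 1.63 TPM in TH17 DMSO cultures. The last 2 groups overlapped near 0, and 1 TH17 Srci1 library was listed at 0, so no fold is given between them. Srci1 cultures were 4.21-fold below DMSO cultures under Treg conditions (16.9 ± 2.56 against 71.0 ± 7.31 TPM). STAT3 knockout TH17 cultures were 8.003-fold above TH17 DMSO cultures (7.76 ± 1.18 against 0.970 ± 0.632 TPM). The fold was 12.1 without the third TH17 DMSO library and 6.11 without the second. Treg DMSO cultures were 73.2-fold above TH17 DMSO cultures. That fold was 111 without the third TH17 DMSO library and 55.9 without the second.

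Ly6g (ENSMUSG00000022582.4, chr15:75155240-75159126, plus strand), the neutrophil marker, was measured well above 0 in both wild-type TH17 groups and in no other group. It was listed at 0 in all 3 Treg Srci1 libraries, and at 0.110, 0 and 0.120 TPM in Treg DMSO cultures. It was at 0.210, 0 and 0 TPM in STAT3 knockout TH17 cultures, 19.0, 18.4 and 19.1 TPM in TH17 Srci1 cultures and 96.5, 88.0 and 80.3 TPM in TH17 DMSO cultures. TH17 Srci1 cultures were 4.69-fold below TH17 DMSO cultures, with no overlap (18.8 ± 0.354 against 88.2 ± 8.10 TPM). No fold is given against the groups that hold zeros.

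**Figure D1:**
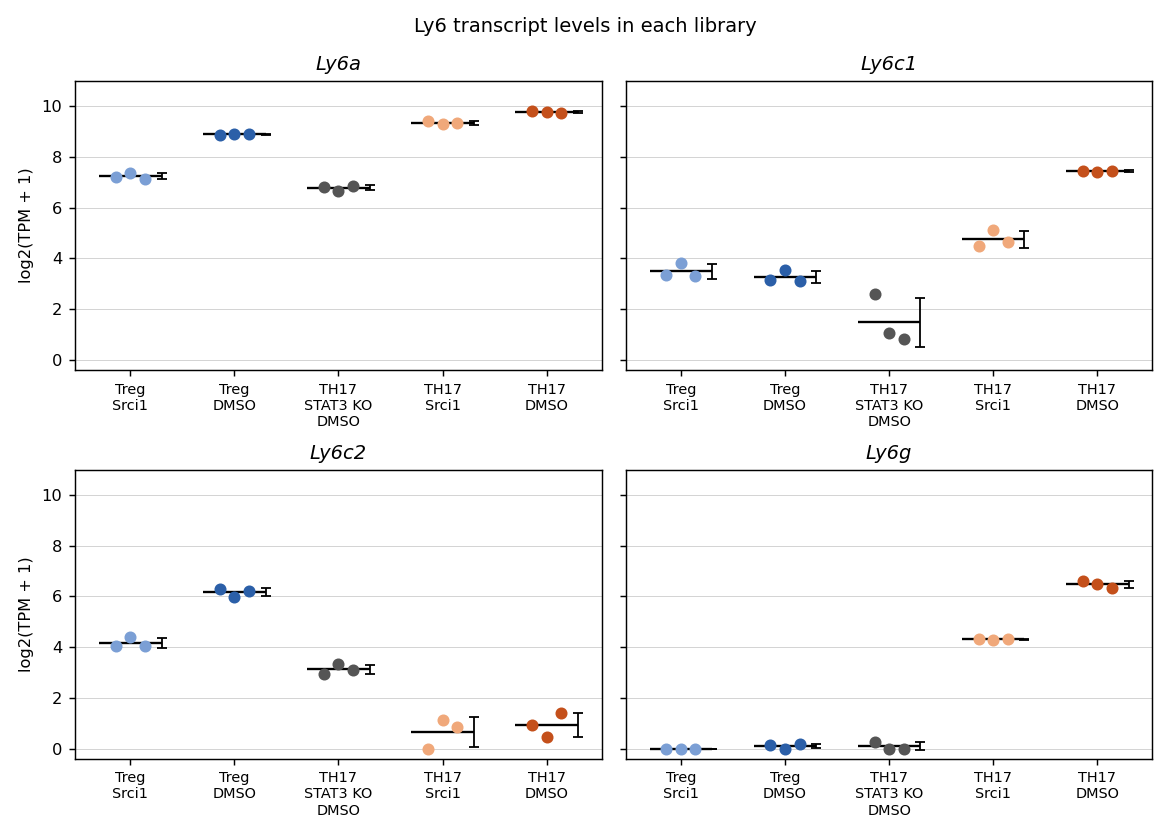
Level of each member in each library, as log2(TPM + 1) on the vertical axis, by group. Points are libraries, lines are means and bars are SD (n = 3); Ly6a, Ly6c1 and Ly6g are highest in TH17 DMSO cultures and Ly6c2 in Treg DMSO cultures.

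Of 12 neutrophil marker genes other than Ly6g, 8 were listed at 0 in all 15 libraries, among them S100a8, S100a9, Mpo, Elane and Csf3r. The 12 summed to 0.260 to 2.40 TPM in Treg Srci1, 0.220 to 0.630 TPM in Treg DMSO, 0 to 0.0300 TPM in STAT3 knockout TH17, 0.700 to 2.05 TPM in TH17 Srci1 and 1.5 to 1.66 TPM in TH17 DMSO cultures. Cxcr2, a chemokine receptor of neutrophils, made up most of the last sum at 1.33, 1.34 and 1.5 TPM. It was at 0.530, 0.370 and 0.370 TPM in TH17 Srci1 cultures and listed at 0 in the other 9 libraries, among them the 3 Treg DMSO and knockout libraries in which Ly6g was at 0.110 to 0.210 TPM. Ltf, a granule protein of neutrophils, made up the Treg sums, at 2.40, 0.260 and 0.440 TPM in Treg Srci1 cultures and 0.580, 0.630 and 0.220 TPM in Treg DMSO cultures, and was listed at 0 in all 3 TH17 DMSO libraries. No other of the 12 than Cxcr2 passed the filter on low values. Markers of monocytes and macrophages, which carry Ly6C, summed to 12.1 to 15.1 TPM in Treg Srci1, 2.27 to 4.54 TPM in Treg DMSO, 11.6 to 12.9 TPM in STAT3 knockout TH17, 5.38 to 7.17 TPM in TH17 Srci1 and 9.09 to 16.2 TPM in TH17 DMSO cultures. Of these 10 genes, Csf1r and Lyz2 were at or below 0.260 TPM in every library, and 4 passed the filter. Ccr2, a chemokine receptor also carried by T cells, made up most of the TH17 DMSO sum at 11.8, 8.25 and 6.53 TPM, and fell to 0.127 ± 0.0945 TPM in STAT3 knockout TH17 cultures (limma adjusted p = 1.19e-08). Ms4a6c, a membrane protein of monocytes, made up most of the Treg Srci1 sum at 13.0, 13.4 and 10.6 TPM, against 0.940, 2.79 and 2.99 TPM in Treg DMSO cultures, and rose (limma adjusted p = 3.32e-05). Itgam, Cx3cr1 and Ms4a6c rose in STAT3 knockout TH17 cultures, to 2.46 ± 0.301 TPM for Itgam, 4.46 ± 0.479 TPM for Cx3cr1 and 4.18 ± 0.297 TPM for Ms4a6c. Among 6 endothelial markers only Pecam1 passed, and the list summed to 68.5 to 74.9 TPM in Treg Srci1, 62.8 to 64.0 TPM in Treg DMSO, 81.1 to 96.6 TPM in STAT3 knockout TH17, 41.0 to 43.1 TPM in TH17 Srci1 and 28.9 to 34.9 TPM in TH17 DMSO cultures. B cell markers (6 genes) summed to 13.3 to 13.9 TPM in STAT3 knockout TH17 cultures and to at most 3.78 TPM in any other library. CD8 T and natural killer cell markers (5 genes) summed to 7.34 to 8.19 TPM in Treg Srci1, 19.7 to 21.4 TPM in Treg DMSO, 17.6 to 21.1 TPM in STAT3 knockout TH17, 9.39 to 13.95 TPM in TH17 Srci1 and 7.13 to 8.84 TPM in TH17 DMSO cultures. Prf1, the pore-forming protein of cytotoxic cells, fell to 2.09 ± 0.272 TPM in Treg Srci1 cultures, against 15.8 ± 1.23 TPM in Treg DMSO cultures (limma adjusted p = 4.9e-08), the comparison in which Ly6c2 was lower too. In STAT3 knockout TH17 cultures, where Ly6c2 was higher, Prf1 rose to 6.28 ± 0.0854 TPM, against 0.753 ± 0.291 TPM in TH17 DMSO cultures, and Cd8a rose to 4.74 ± 0.592 TPM, against 0.0167 ± 0.0289 TPM. Cd8b1 was not called in that comparison, at 8.66 ± 1.39 TPM against 7.23 ± 0.597 TPM (limma adjusted p = 0.235). Nor was Cd8b1 called with Srci1 under either culture condition. Cd8a also rose with Srci1 in Treg cultures, to 0.793 ± 0.395 TPM against 0.240 ± 0.0889 TPM (limma adjusted p = 0.0324). With Srci1 in TH17 cultures, where Ly6c2 was near 0 in both groups, Prf1 rose to 3.29 ± 0.564 TPM and Cd8a to 0.583 ± 0.159 TPM. In Treg DMSO against TH17 DMSO cultures, where Ly6c2 was higher, Prf1 rose too. Cd8b1 fell there, to 4.33 ± 0.435 TPM against 7.23 ± 0.597 TPM (limma adjusted p = 0.00386). Ncr1, a receptor of natural killer cells, was listed at 0 in all 15 libraries. The part of such cells in the members' levels was not tested.

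Ly6c1 and Ly6c2 transcripts share sequence, which bears on how reads are divided between them. The longest coding transcript of each, in the GENCODE M21 annotation, was 97.6% identical to the other over 822 aligned bases, while the other 5 pairs of members were 83.0% to 87.1% identical. Of all distinct runs of 50 bases in the coding transcripts of Ly6c2, 31.2% also occurred in another gene, against 25.6% for Ly6c1, 19.0% for Ly6a and 0.450% for Ly6g. With runs of 100 bases, the shares were 14.9% for Ly6c2, 7.57% for Ly6c1, 1.45% for Ly6a and 0% for Ly6g. Ly6c1 shared 50-base runs with Ly6a too, 11.1% of its own. No 50-base run of Ly6g occurred in another member. The sources used here do not give the read length, so these shares bound no error. The values of Ly6a, Ly6c1 and Ly6c2 are uncertain by an amount that was not estimated.

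**Figure D2:**
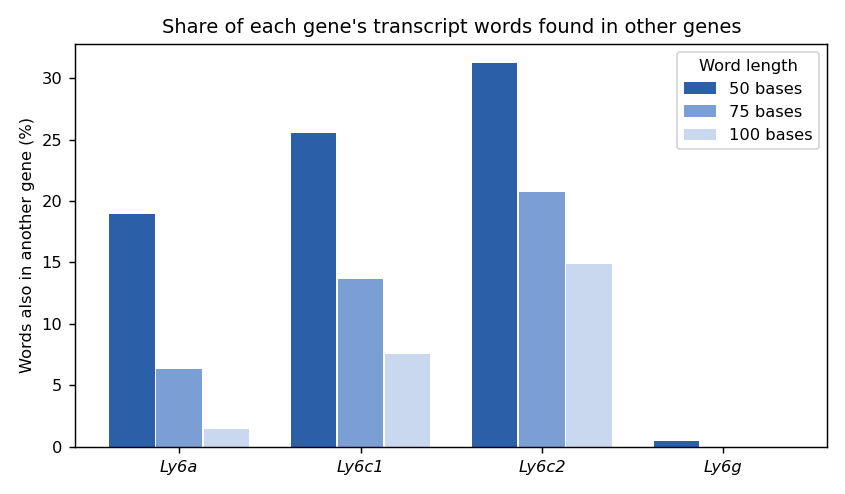
Share of each member's distinct transcript runs (words) of 50, 75 and 100 bases that also occur in a transcript of another gene, in percent on the vertical axis. Ly6c2 has the highest share and Ly6g is close to 0.

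The sum of Ly6c1 and Ly6c2 depends less than either gene on how reads are divided within this pair. It is not free of it, because TPM are scaled for transcript length. The mean sum was 10.1 TPM in STAT3 knockout TH17 cultures against 174 TPM in TH17 DMSO cultures, 17.3-fold lower. It was 27.2 TPM in TH17 Srci1 cultures against 174 TPM in TH17 DMSO cultures, 6.39-fold lower. Under Treg conditions it was 27.2 TPM with Srci1 against 79.6 TPM with DMSO, 2.92-fold lower. It was 79.6 TPM in Treg DMSO cultures against 174 TPM in TH17 DMSO cultures, 2.18-fold lower, where Ly6c1 was lower and Ly6c2 higher. The groups did not overlap in any of these. Ly6c2 made up 60.2% to 63.7% of the sum in Treg Srci1 libraries, 85.6% to 90.8% in Treg DMSO libraries, 57.1% to 90.9% in STAT3 knockout TH17 libraries, 0% to 3.36% in TH17 Srci1 libraries and 0.220% to 0.920% in TH17 DMSO libraries. Ly6a made up 76.7% to 77.7% of all 4 members in TH17 DMSO libraries, less than in any library of the other groups, where its share was 83.3% to 94.5%.

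Set side by side by comparison, the members moved in mixed directions. In STAT3 knockout against wild-type TH17 cultures, the libraries of both groups were apart for all 4 members, with Ly6a, Ly6c1 and Ly6g lower and Ly6c2 higher. Of the 12800 genes that passed the filter (at least 1 TPM in at least 3 libraries), 51.5% were apart in this way, 32.5% higher and 18.9% lower. For TH17 cultures with Srci1 against DMSO, the groups were apart for 3 members, Ly6a, Ly6c1 and Ly6g, each lower, against 48.9% of all genes tested (39.6% higher, 9.29% lower). For Treg cultures with Srci1 against DMSO they were apart for 2 members, Ly6a and Ly6c2, both lower, against 50.3% of all genes (34.4% higher, 15.9% lower). For Treg against TH17 cultures, both with DMSO, they were apart for all 4, with Ly6c2 higher and the others lower, against 52.9% of all genes (38.1% higher, 14.8% lower). Since the members were chosen with these levels known, nothing is read from these counts. On the log2(TPM + 1) scale, which understates changes of low genes, the difference between Srci1 and DMSO cultures under Treg conditions was -1.67 ± 0.07 for Ly6a, 0.23 ± 0.22 for Ly6c1 and -2.01 ± 0.14 for Ly6c2 (SE). Under TH17 conditions it was -0.42 ± 0.05 for Ly6a, -2.68 ± 0.19 for Ly6c1, -0.28 ± 0.43 for Ly6c2 and -2.17 ± 0.08 for Ly6g. All 3 comparisons with TH17 DMSO cultures share those 3 libraries.

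**Figure D3:**
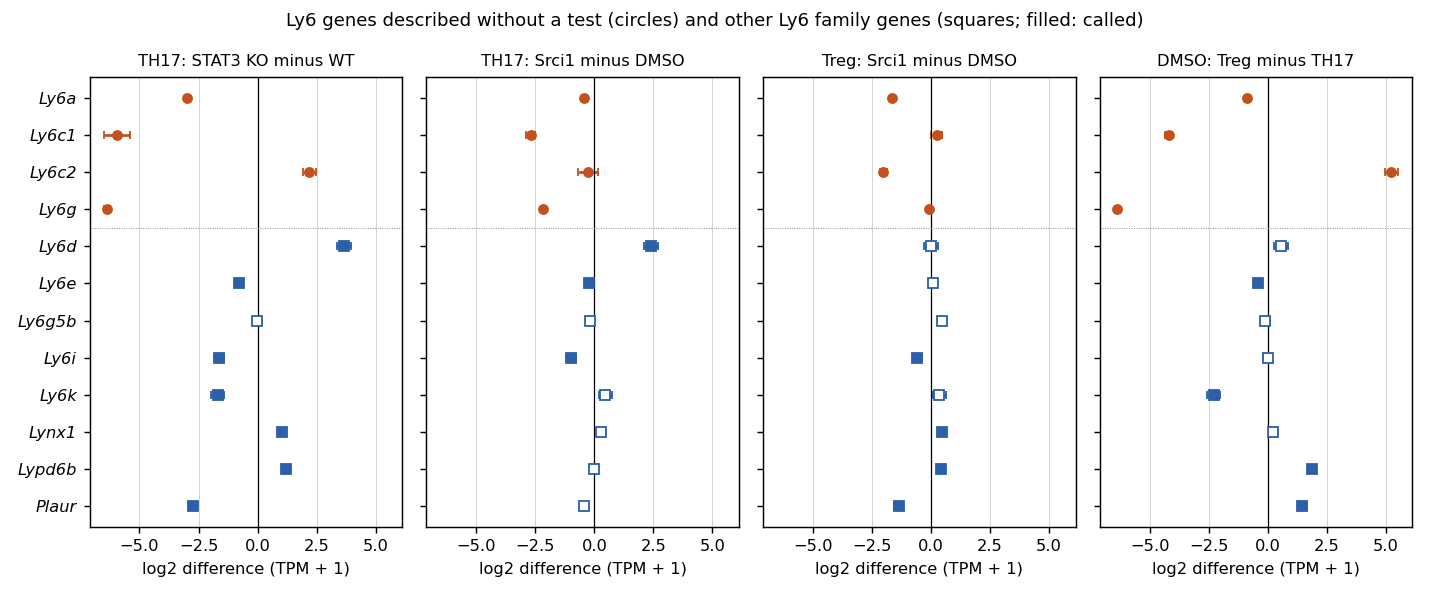
Difference in mean log2(TPM + 1) in the 4 comparisons (horizontal axis) for the 4 members (circles, with the standard error from the 2 groups) and the 8 other Ly6 family genes tested (squares, with limma's standard error; filled where called). Ly6c2 and Ly6d are above 0 in knockout TH17 cultures, where Ly6a, Ly6c1 and Ly6g are below it.

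Most other genes of the Ly6 family were at or near 0. Of 35 listed, 34 were matched in the table, 12 of them were listed at 0 in all 15 libraries and 8 passed the filter. These 8 were tested with limma over all 12800 genes, with calls made at 0.05 after Benjamini-Hochberg adjustment. In STAT3 knockout against wild-type TH17 cultures, where 49.7% of all genes were called (30.9% higher, 18.9% lower), 3 of the 8 rose and 4 fell (median log2 difference -0.41). Ly6d, found on lymphoid progenitors and B cells, was at 15.7, 14.4 and 11.6 TPM in knockout cultures, against 0, 0.140 and 0.430 TPM in TH17 DMSO cultures, and rose by a log2 difference of 3.65 ± 0.30 (SE, limma adjusted p = 1.88e-07). Plaur, the urokinase receptor, was at 0.340, 0.0600 and 0.430 TPM in knockout cultures, against 7.39, 6.87 and 7.96 TPM in TH17 DMSO cultures (log2 difference -2.73 ± 0.17, limma adjusted p = 1.44e-08). Ly6k, best known from germ cells, and Ly6i, a close relative of Ly6a, fell too, with log2 differences of -1.69 ± 0.28 for Ly6k and -1.62 ± 0.19 for Ly6i. Ly6e, the most abundant gene of the family, fell to 919 ± 93.4 TPM in knockout cultures, against 1589 ± 8.60 TPM in TH17 DMSO cultures (limma adjusted p = 3.25e-07). Lynx1, a modulator of nicotinic acetylcholine receptors, and Lypd6b rose to 1.42 ± 0.0808 TPM for Lynx1 and 1.57 ± 0.0577 TPM for Lypd6b, each against 0.2 TPM or less in TH17 DMSO cultures. Ly6g5b was at about 1 TPM in both groups and was not called.

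With Srci1 in TH17 cultures, where 40.9% of all genes were called (33.8% higher, 7.08% lower), 1 of the 8 rose and 2 fell (median -0.10). Ly6d was at 3.75, 5.40 and 6.77 TPM with Srci1, against 0, 0.140 and 0.430 TPM with DMSO, and rose by 2.39 ± 0.30 on the log2 scale (limma adjusted p = 3.82e-05). Ly6i fell to 0.883 ± 0.258 TPM with Srci1, against 2.71 ± 0.399 TPM with DMSO (limma adjusted p = 0.001). Ly6e fell by 0.22 on the log2 scale (limma adjusted p = 0.0185), a call that was lost under quantile normalization (limma adjusted p = 0.395) and without the first TH17 Srci1 library (limma adjusted p = 0.0842). Plaur and Ly6k were not called, with log2 differences of -0.43 ± 0.17 for Plaur and 0.46 ± 0.28 for Ly6k, but Plaur was under median-of-ratios scaling (limma adjusted p = 0.012).

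Under Treg conditions, where 27.2% of all genes were called with Srci1 (17.1% higher, 10.0% lower), 2 of the 8 rose and 2 fell (median 0.22). Plaur was at 8.55, 7.48 and 7.88 TPM with Srci1, against 22.0, 25.1 and 19.9 TPM with DMSO, and fell by 1.38 on the log2 scale (limma adjusted p = 6.22e-05). Ly6i fell by 0.58 and Lypd6b rose by 0.41 on the log2 scale, but both calls were lost with a pseudocount of 0.1 (limma adjusted p = 0.0966 for Ly6i and 0.366 for Lypd6b). Lynx1 rose by 0.48 on the log2 scale (limma adjusted p = 0.0123), a call that was lost without the third Treg Srci1 library (limma adjusted p = 0.0511) or the third Treg DMSO library (limma adjusted p = 0.0536). Between Treg DMSO and TH17 DMSO cultures, where 44.8% of all genes were called (32.3% higher, 12.5% lower), 2 rose and 2 fell (median 0.11). Lypd6b rose by 1.88 and Plaur by 1.47 on the log2 scale in Treg cultures, while Ly6k fell by 2.28 and Ly6e fell by 0.40. The effect of Srci1 differed between TH17 and Treg cultures for Ly6d (limma interaction, adjusted p = 0.00194), Plaur (limma adjusted p = 0.0201) and Ly6e (limma adjusted p = 0.0427), but the call was lost in 14 alternatives for Ly6e and in 5 for Plaur. Of all genes, 14.2% were called in that test, 11.3% higher and 2.95% lower in TH17 relative to Treg cultures.

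The 4 members span 164.2 kb, and 60 annotated genes, members included, lie within 500 kb of any of them. Of these, 33 were listed at 0 in all 15 libraries and 15 passed the filter, members included. Levels varied widely along the cluster. Ly6i, the tested gene whose start lies nearest to that of Ly6a, was at 0.0800 to 3.43 TPM, and Ly6e, the next tested gene on that side, at 849 to 1599 TPM over the 15 libraries. Outside the Ly6 family, Arc, a synaptic plasticity gene also found in activated immune cells, rose in Treg DMSO against TH17 DMSO cultures by 1.65 ± 0.11 on the log2 scale and fell by 0.80 with Srci1 under Treg conditions (limma adjusted p = 0.000171). Arc also rose in STAT3 knockout TH17 cultures, by 0.68 (limma adjusted p = 0.000192). Zfp41, a zinc finger gene, rose in STAT3 knockout TH17 cultures by 0.90 ± 0.14 (limma adjusted p = 8.04e-05). Zfp41 rose too with Srci1 in TH17 cultures, by 0.61 (limma adjusted p = 0.00311), and in Treg against TH17 cultures, by 0.88 (limma adjusted p = 0.000138). Top1mt, the mitochondrial topoisomerase, fell with Srci1 in TH17 cultures by 0.67 on the log2 scale (limma adjusted p = 0.00496). Jrk was called in none of the 4 comparisons, though it was under quantile normalization in the knockout comparison (limma adjusted p = 0.0456). The pseudogene 2810039B14Rik, with group means of 0.76 to 1.99 TPM, was not called in any of the 4 either, but was lower in Treg against TH17 cultures under median-of-ratios scaling (limma adjusted p = 0.0313) and quantile normalization (limma adjusted p = 0.0312). Them6 fell in STAT3 knockout TH17 cultures by 0.34 on the log2 scale (limma adjusted p = 0.00543), a call lost in a fit of these groups alone (limma adjusted p = 0.0791). Them6 rose by 0.30 with Srci1 in TH17 cultures and by 0.43 in Treg against TH17 cultures. Both of those calls were lost under median-of-ratios scaling (limma adjusted p = 0.821 and 0.122) and under quantile normalization.

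**Figure D4:**
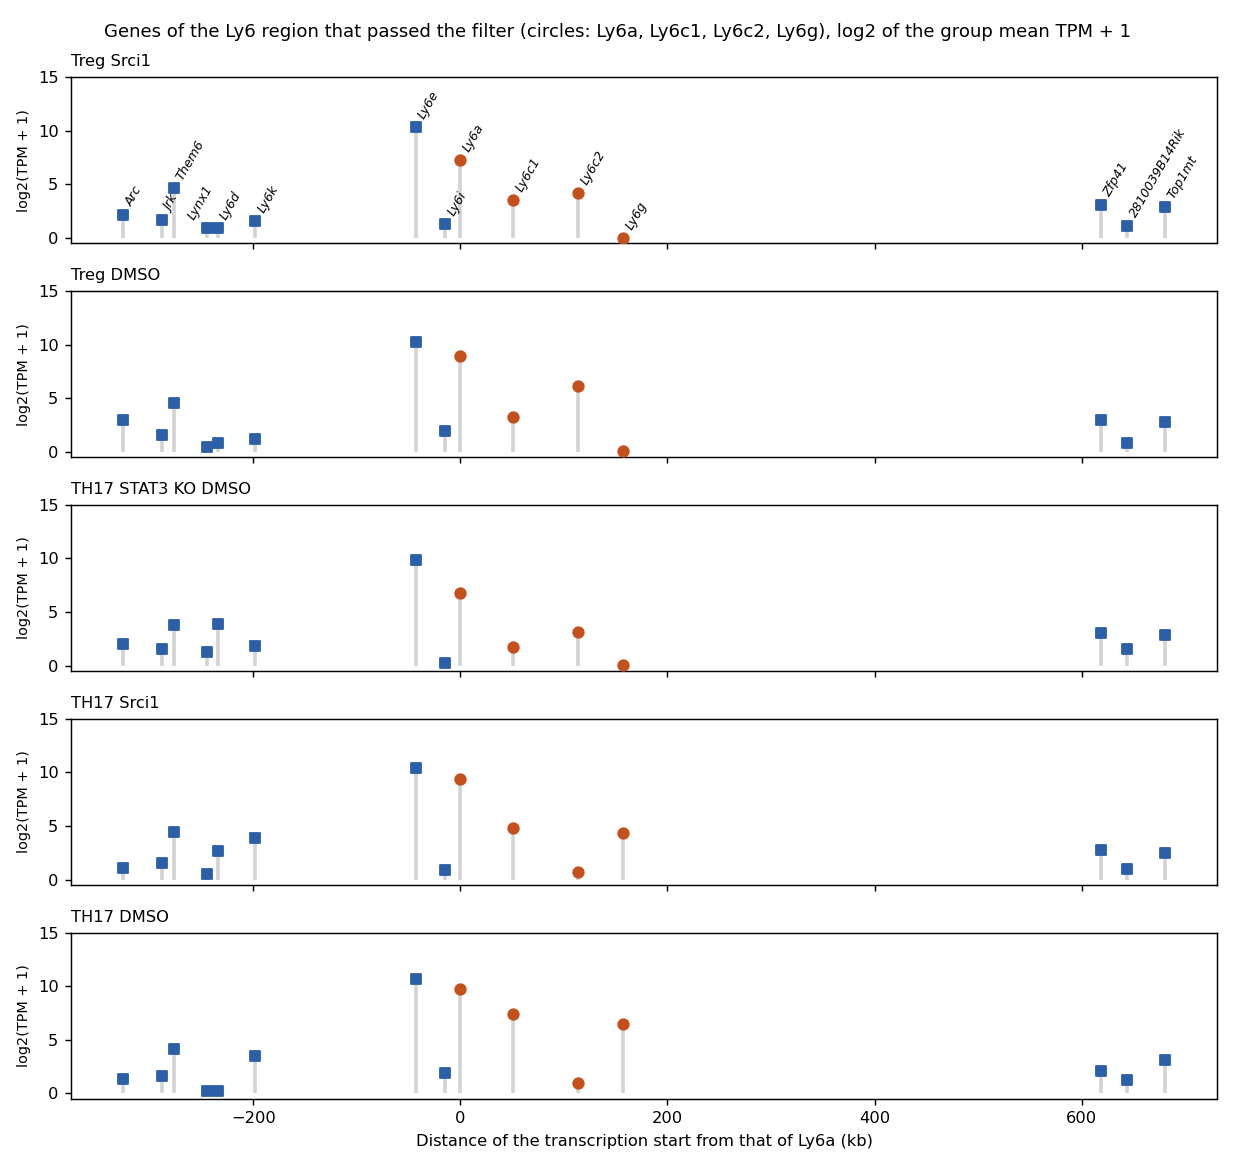
Genes that passed the filter within 500 kb of a member, by distance of the start of transcription from that of Ly6a in kb (horizontal axis) and log2 of the group mean TPM + 1 (vertical axis), with a panel for each group. Circles are the members and squares the other genes; Ly6g is high in both wild-type TH17 panels only, while Ly6e is high in all 5.

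All 28 genes listed for building and attaching the GPI anchor, which Ly6 proteins need to reach the membrane, passed the filter. Within each comparison, taken separately, most of the 28 were not called. In STAT3 knockout against wild-type TH17 cultures 7 rose and 1 fell, where 30.9% of all genes rose and 18.9% fell, and the median log2 difference was 0.10, against 0.13 over all genes tested. With Srci1 in TH17 cultures 9 rose and 1 fell (median 0.20, against 0.21 over all genes), where 33.8% of all genes rose and 7.08% fell. With Srci1 in Treg cultures 4 rose and 0 fell (median 0.21, against 0.11), where 17.1% of all genes rose and 10.0% fell. Between Treg DMSO and TH17 DMSO cultures 9 rose and 3 fell (median 0.18, against 0.18), where 32.3% of all genes rose and 12.5% fell. Under median-of-ratios scaling 6 rose and 4 fell in the knockout comparison, 3 and 3 with Srci1 in TH17 cultures, 1 and 0 with Srci1 in Treg cultures, and 6 and 5 in Treg against TH17 cultures. Pgap3, which remodels the lipid of the anchor, rose to 7.20 ± 0.660 TPM in knockout TH17 cultures, against 1.72 ± 0.170 TPM in TH17 DMSO cultures (limma adjusted p = 3.47e-08). Pigz, a mannosyltransferase of the pathway, fell to 0.250 ± 0.111 TPM in Treg DMSO cultures, against 5.05 ± 0.666 TPM in TH17 DMSO cultures (limma adjusted p = 4e-05).

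Ly6a is known to be induced by interferons, and 11 of 14 listed interferon response genes could be tested. In STAT3 knockout TH17 cultures, where Ly6a was lower, 8 rose and 1 fell against TH17 DMSO cultures (median log2 difference 1.19, against 0.13 over all genes), where 30.9% of all genes rose and 18.9% fell. Irf1, an interferon-induced transcription factor, rose to 151 ± 7.69 TPM in knockout cultures, against 20.3 ± 2.01 TPM in TH17 DMSO cultures (limma adjusted p = 8.38e-12). With Srci1 in TH17 cultures, where Ly6a was lower too, 5 rose and 0 fell (median 0.30, against 0.21 over all genes). Under either other scaling 4 rose and 1 fell. Of all genes, 33.8% rose and 7.08% fell in the values as deposited. With Srci1 in Treg cultures, where Ly6a was also lower, 0 rose and 8 fell (median -0.46, against 0.11 over all genes), where 17.1% of all genes rose and 10.0% fell. Irf7, a transcription factor that amplifies type I interferon, fell to 6.42 ± 0.440 TPM with Srci1, against 15.1 ± 1.11 TPM with DMSO (limma adjusted p = 0.00013). Between Treg DMSO and TH17 DMSO cultures 10 rose and 0 fell (median 1.29, against 0.18 over all genes), where 32.3% of all genes rose and 12.5% fell, while Ly6a was lower in Treg cultures. A link between these genes and the level of Ly6a was not tested.

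T-bet, encoded by Tbx21, drives TH1 cells, and Ly6C is known from effector TH1 cells in infected mice. Of 11 listed regulators of TH1 cells, all tested, 4 rose and 6 fell in STAT3 knockout TH17 cultures (median log2 difference -0.36, against 0.13 over all genes), where 30.9% of all genes rose and 18.9% fell. Tbx21 rose to 21.9 ± 2.71 TPM in knockout cultures, against 0.603 ± 0.125 TPM in TH17 DMSO cultures (limma adjusted p = 1.04e-11). With Srci1 in TH17 cultures 3 rose and 2 fell (median 0.00, against 0.21), where 33.8% of all genes rose and 7.08% fell, but 0 rose and 5 fell under either other scaling. Tbx21 averaged 0.603 TPM both with Srci1 and with DMSO. With Srci1 in Treg cultures 1 rose and 5 fell (median -0.24, against 0.11), where 17.1% of all genes rose and 10.0% fell, and Tbx21 fell to 11.8 ± 1.46 TPM, against 45.0 ± 1.72 TPM with DMSO (limma adjusted p = 1.71e-07). Between Treg DMSO and TH17 DMSO cultures 6 rose and 3 fell (median 0.83, against 0.18), where 32.3% of all genes rose and 12.5% fell. Ly6c2 and Tbx21 were both highest in Treg DMSO cultures and lowest in the wild-type TH17 cultures, but Tbx21 was higher in knockout TH17 than in Treg Srci1 cultures, and Ly6c2 was lower. A link between the 2 genes was not tested.

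Ly6C also marks memory and activated T cells. Of 8 listed surface genes of memory and activation, 3 rose and 4 fell in STAT3 knockout TH17 cultures (median log2 difference -0.18, against 0.13 over all genes), where 30.9% of all genes rose and 18.9% fell. With Srci1 in TH17 cultures 5 rose and 1 fell (median 0.28, against 0.21), where 33.8% of all genes rose and 7.08% fell, or 3 and 1 under median-of-ratios scaling. With Srci1 in Treg cultures 3 rose and 3 fell (median 0.01, against 0.11), where 17.1% of all genes rose and 10.0% fell. In Treg DMSO against TH17 DMSO cultures 4 rose and 1 fell (median 0.21, against 0.18), where 32.3% of all genes rose and 12.5% fell, or 3 and 2 under median-of-ratios scaling.

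The genes most like each member were found by the root mean square difference of log2(TPM + 1), after centring each gene on its mean over the 15 libraries, among 9343 named genes that reached a group mean of 5 TPM. The libraries of a group share their condition, so this describes profiles over 5 groups and carries no test. The distances are not scaled to how much a member varied, which was an SD over the 15 libraries of 1.19 log2 units for Ly6a, 2.02 for Ly6c1, 2.08 for Ly6c2 and 2.699 for Ly6g, so they are not compared between members. Avpi1 differed from Ly6a by 0.178 log2 units, followed by Mxi1, a MYC antagonist (0.276), Aldoc, a glycolytic aldolase (0.283), and P4ha2, a collagen prolyl hydroxylase (0.284). The nearest to Ly6g were Ltb4r1, a leukotriene B4 receptor (0.484), Gcnt2, a glycosyltransferase (0.634), Il21, a cytokine of TH17 and follicular helper cells (0.641), and Crispld2 (0.663). Il21 was at 54.5 ± 6.46 TPM in TH17 Srci1 cultures and 205 ± 35.5 TPM in TH17 DMSO cultures. Those nearest to Ly6c2 were Eno3, an enolase (0.654), Tmod1, an actin-capping protein (0.767), Tbx21 (0.782) and Ccl3, a chemokine (0.839). Those nearest to Ly6c1 were Ecm1, an extracellular matrix protein (0.845), Tgm1, a transglutaminase (0.863), Enpp2, the enzyme autotaxin (0.865) and Lilr4b, an inhibitory receptor (0.902). Among the members, the pair most alike was Ly6a and Ly6c1 (1.249), and the pair least alike was Ly6c2 and Ly6g (4.573). The close copies Ly6c1 and Ly6c2 differed by 3.638.

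**Figure D5:**
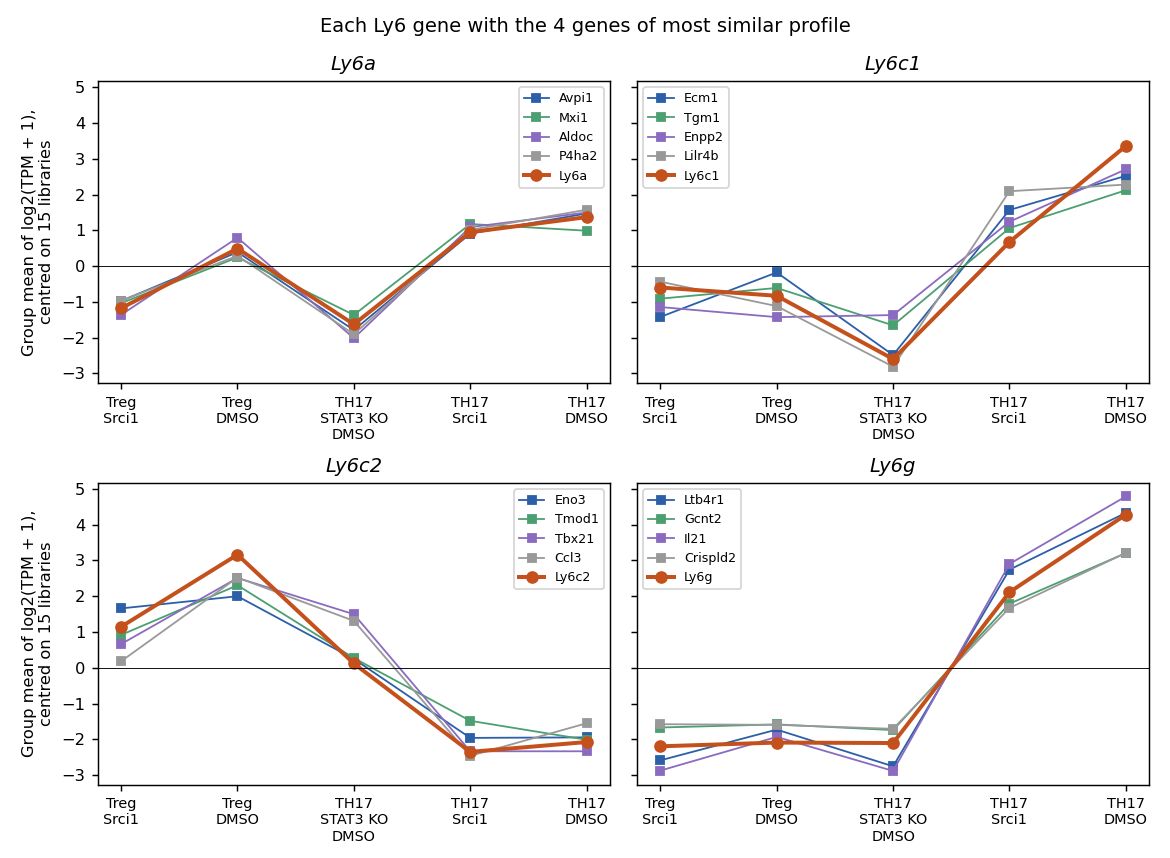
Group means of log2(TPM + 1), centred on the mean over the 15 libraries (vertical axis), for each member (thick line) and the 4 genes of most similar profile. The Ly6c2 panel is highest in Treg DMSO cultures, and the Ly6c1 and Ly6g panels in TH17 DMSO cultures.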

How the data were processed

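RNA of 15 libraries was poly(A)-selected and made into libraries with NEBNext kits, per the labels' protocols. The deposited values are TPM per gene. The authors aligned to build GRCm38 and estimated these values with RSEM 1.3.3 and STAR 2.7.9a, per the submitters' processing notes. Annotation release, strand setting and read length were not found in the sources used here. TPM sum to the same total in each library, so depth is unknown and no counting interval is given. A symbol was assigned to 55154 of the 55421 gene IDs. Gene types and positions came from GENCODE M21, which held 55240 of the 55421 IDs with the version ignored.

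Tests were made with limma 3.58.1 (R 4.3.3) on log2(TPM + 1), with a mean for each of the 5 groups, an expression trend, 10 residual degrees of freedom and Benjamini-Hochberg adjustment over 12800 genes with at least 1 TPM in 3 libraries. 1 gene of the interferon list is not reported here and was left out of its counts. The procedure was tested on simulated data. Replicate numbers were not used in the model. All 4 members passed the filter, Ly6g through wild-type TH17 libraries only.

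The 4 members and the 13 lists (150 entries) were chosen with earlier results of these data known. Named are the members, each other Ly6 family gene tested, the 4 most similar genes per member, list genes with the smallest adjusted p, genes within 500 kb that passed the filter, and Stat3. Cxcr2, Ccr2, Csf1r, Lyz2 and the other markers of non-T cells named with levels, and Tbx21 in TH17 cultures with Srci1, were picked after their values were seen. Alternatives were a pseudocount of 0.1, no filter, a filter of 5 TPM, 2 other scalings, fits of the compared groups alone, the replicate block and leaving out each library.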

Additional observations from a re-analysis of the deposited data

Results flagged for a closer look

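The effect of Srci1 on the log2(TPM + 1) scale differed between TH17 and Treg cultures for 18 of the genes tested and named by rule. The test was limma's test of the difference itself (TH17 minus Treg, adjusted over 12800 genes, of which 14.2% were called). Some list genes were named for a small adjusted p in the same Srci1 comparisons that make up this difference. The 18 therefore cannot be set against the share over all genes. In the Ly6 family the difference was 2.38 for Ly6d (limma adjusted p = 0.00194), which rose in TH17 cultures, 0.95 for Plaur (limma adjusted p = 0.0201), which fell in Treg cultures, and -0.32 for Ly6e (limma adjusted p = 0.0427). For Plaur the call was lost with a pseudocount of 0.1 (limma adjusted p = 0.221), under quantile normalization and without 1 of 3 libraries in turn (TH17 Srci1 replicate 1 or 3, or Treg DMSO replicate 2). For Ly6e the call was lost in 14 alternatives, for example under quantile normalization (limma adjusted p = 0.183) or without the first TH17 DMSO library (limma adjusted p = 0.0562). Among genes near the members the difference was 0.58 for Arc and -0.76 for Top1mt (limma adjusted p = 0.028 and 0.0421). The call was lost in 9 alternatives for Arc and in 13 for Top1mt. Both were lost without a filter on low values (limma adjusted p = 0.0545 and 0.0803). Of the GPI anchor genes the difference was -0.43 for Pigp (limma adjusted p = 0.04). That call was lost in 9 fits that leave out a library (limma adjusted p = 0.0916 without the first Treg Srci1 library).

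Among interferon response genes the difference was 1.26 for Irf1, 0.98 for Gbp2, 0.82 for Gbp3, 1.33 for Stat2, 1.53 for Mx1 and 1.41 for Irf7, and the call for Mx1 was lost with a pseudocount of 0.1 (limma adjusted p = 0.0863). Among TH1 regulators it was 1.85 for Tbx21, 1.01 for Il12rb1, 0.95 for Ifngr1, 2.21 for Il12rb2 and 2.07 for Ifng. Stat3 had a difference of 1.19, with a log2 difference of -0.80 under Treg conditions and 0.39 under TH17 conditions. The value under TH17 conditions was 0.12 with median-of-ratios scaling (limma adjusted p = 0.161), and its call was lost in a fit of the compared groups alone (limma adjusted p = 0.0525). For the 4 members the difference of the Srci1 effect was not tested, because they were chosen with their levels known.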

How the results depend on the processing

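Each member kept its direction of difference under the scalings, the pseudocount of 0.1 and without 1 library, apart from Ly6c2 with Srci1 in TH17 cultures. Ly6c2 was near 0 in both of those groups (0.05 without TH17 Srci1 replicate 1). The replicate block cannot change a member's difference, because every group holds each replicate number, so it is no check of direction. Under median-of-ratios scaling the log2 differences were -3.14 for Ly6a and -6.57 for Ly6g in knockout TH17 cultures, -0.70 for Ly6a, -2.95 for Ly6c1, -2.43 for Ly6g and -2.93 for the sum of Ly6c1 and Ly6c2 with Srci1 in TH17 cultures, -1.79 for Ly6a with Srci1 in Treg cultures, and -1.10 for Ly6a, -4.405 for Ly6c1, -6.57 for Ly6g and -1.34 for the sum in Treg against TH17 cultures. Under quantile normalization they were -2.91 for Ly6a in knockout TH17 cultures, -2.37 for Ly6g with Srci1 in TH17 cultures, and -0.92 for Ly6a, -6.49 for Ly6g and -1.21 for the sum in Treg against TH17 cultures. With a pseudocount of 0.1, low values changed most, to -6.64 for Ly6c1, 3.06 for Ly6c2 and -9.24 for Ly6g in knockout TH17 cultures, -0.96 for Ly6c2 with Srci1 in TH17 cultures, and 6.24 for Ly6c2 and -9.05 for Ly6g in Treg against TH17 cultures. Of the other Ly6 family genes, 7 were called in knockout TH17 cultures, or 4 with a filter of 5 TPM, which tests fewer genes. With Srci1 in Treg cultures 4 were called, or 2 with a pseudocount of 0.1, 2 without a filter, 1 with a filter of 5 TPM and 2 in a fit of the compared groups alone. Without 1 library it was 1 to 4, with 1 without the third library of either Treg group. Dpm2, a GPI anchor gene, was called at 0.26 with Srci1 in TH17 cultures, and its difference was -0.01 (-0.0116) under median-of-ratios scaling. The cause of these changes was not tested. Same-numbered libraries correlated at -0.171 to 0.128 in their deviations from group means. No reference from differently numbered libraries is given, so these values cannot tell whether a number stands for a shared mouse or culture. With the replicate block 6280 genes were called in knockout TH17 cultures, 5063 with Srci1 in TH17, 3286 with Srci1 in Treg and 5599 in Treg against TH17 cultures, where 6366, 5230, 3477 and 5737 were called without it, and Ly6k with Srci1 in TH17 cultures was called (limma adjusted p = 0.0433). Depth is unknown, which limits what can be said of values below about 1 TPM.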
